A study of Mus musculus with 12 samples.

Results

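The 10 genes described here belong to interleukin-6 and interleukin-1 signalling, and were compared between livers of mice with and without *Yap1*. They are the ligand *Il6*, the receptor chains *Il6ra*, *Il6st*, *Osmr* and *Lifr*, the transcription factor *Stat3*, its feedback inhibitors *Socs3* and *Socs1*, and the interleukin-1 receptor *Il1r1* with the receptor antagonist *Il1rn*. They were taken by name from the deposited table, which holds 25676 genes, and each name matched 1 row. Whole liver was sequenced from 12 mice of C57BL/6 background aged 3 to 4 months, 3 in each of 4 groups: wild-type (WT) males, WT females, and males and females in which Cre recombinase under the *Foxa3* promoter removed *Yap1* (KO). *Foxa3*-Cre is active in embryonic endoderm, so hepatocytes and bile duct cells are its targets, while macrophages, stellate cells and endothelial cells of the liver have other origins. The labels do not say whether WT mice carried Cre or an unrecombined *Yap1* allele, and mice of the same replicate number are not paired.

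Interleukin-6 binds its own receptor chain, IL6RA, on the cell surface or shed into the fluid, and the complex then engages the shared signalling chain gp130, the product of *Il6st*. Oncostatin M and leukemia inhibitory factor (LIF) act through the same gp130 joined to OSMR or LIFR. All of these receptors use JAK kinases to phosphorylate STAT3, which in hepatocytes switches on acute-phase genes and also *Socs3*, whose product binds gp130 and the kinases and shuts signalling down. Interleukin-1 acts through IL1R1 and its partner IL1RAP, and the secreted antagonist encoded by *Il1rn* occupies IL1R1 without signalling.

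*Yap1* was 29.5 ± 4.46 TPM (transcript abundance per length, scaled to a fixed sum per library; SD, n = 6) in WT, between 23.0 and 34.9, and 2.02 ± 0.775 TPM (SD, n = 6) in KO, between 0.994 and 3.11. As a check of the tissue, the summed TPM of 6 hepatocyte markers was 85830 to 110900 in WT and 59340 to 84460 in KO. TPM is a share of a library, and most genes were shifted upward together in KO: over the 12278 genes with a mean of at least 0.5 TPM, the median log2 fold change was 0.35, and -0.04 after rescaling by median-of-ratios size factors. Each change is therefore given on the deposited scale and, where it matters, after rescaling. The titles place WT female 3 and KO female 1 in an earlier series of animal numbers, and the description of WT male 2 carries a library number of another series. In bulk tissue, fewer cells of a type and less RNA per cell cannot be told apart.

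Sequences before a RefSeq start of 4 of the genes are shown because the genes differ in what these stretches hold: *Il6* and *Socs3* are textbook targets of NF-kB and of STAT3, *Stat3* holds the core letters bound by TEAD, the DNA-binding partner of YAP1, and *Lifr* holds none of the motifs searched. They are from RefSeq (GRCm38.p6), which had 14 promoters for the 10 genes, and are written 5′ to 3′ on the strand of the gene, each cut where an exon annotated by GENCODE begins. Those of *Il6* and *Stat3* end where the GENCODE gene begins. Those of *Socs3* and *Lifr* precede internal starts: they lie within the GENCODE gene, between annotated exons. Capitals mark a motif match. The *Il6* stretch is chr5:30012864-30013113 (plus strand), *Stat3* is chr11:100939541-100939790 (minus strand), *Socs3* is chr11:117969452-117969616 (minus strand) and *Lifr* is chr15:7129322-7129558 (plus strand).
Il6: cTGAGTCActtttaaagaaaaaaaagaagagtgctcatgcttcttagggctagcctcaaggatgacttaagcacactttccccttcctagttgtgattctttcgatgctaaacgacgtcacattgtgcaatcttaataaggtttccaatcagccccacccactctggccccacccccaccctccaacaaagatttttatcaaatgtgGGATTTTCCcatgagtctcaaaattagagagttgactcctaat
Stat3: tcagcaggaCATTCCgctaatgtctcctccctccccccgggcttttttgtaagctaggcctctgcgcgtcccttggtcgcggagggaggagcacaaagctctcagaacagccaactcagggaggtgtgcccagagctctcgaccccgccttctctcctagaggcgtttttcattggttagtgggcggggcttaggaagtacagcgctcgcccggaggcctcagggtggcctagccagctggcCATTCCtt
Socs3: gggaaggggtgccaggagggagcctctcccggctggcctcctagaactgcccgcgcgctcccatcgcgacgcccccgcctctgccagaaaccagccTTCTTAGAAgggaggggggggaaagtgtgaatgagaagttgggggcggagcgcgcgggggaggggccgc
Lifr: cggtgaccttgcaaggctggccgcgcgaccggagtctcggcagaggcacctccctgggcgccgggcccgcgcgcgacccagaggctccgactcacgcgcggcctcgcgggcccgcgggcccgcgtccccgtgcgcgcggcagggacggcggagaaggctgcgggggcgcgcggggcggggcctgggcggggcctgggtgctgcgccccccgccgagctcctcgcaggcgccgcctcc

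In all, 4 motifs were searched on both strands in the 250 bases before each RefSeq start. The STAT motif TTCNNNGAA was in 7.0% of all 32851 promoters, the NF-kB motif GGANTTTCC in 1.1%, the AP-1 motif TGANTCA in 6.7% and the TEAD motif GGAATG in 12.6%. *Il6* held GGATTTTCC, with its bases 43 to 35 before the start, and an AP-1 match at the far end of the window. *Socs3* held the STAT match TTCTTAGAA, 154 to 146 bases before the start. The bases after that start matched no GENCODE transcript of *Socs3*, and an annotated exon begins between the match and the start. The distance is thus to a RefSeq start only. *Stat3* held the TEAD letters in reverse orientation (CATTCC) at 2 places, 241 to 236 and 8 to 3 bases before the start. 1 of 2 *Il1r1* starts had 2 TEAD matches, and among the 3 *Il1rn* starts there was 1 AP-1 and 1 TEAD match. None of the 4 motifs was found in these windows of *Il6ra*, *Il6st*, *Osmr*, *Lifr* or *Socs1*. The printed *Lifr* stretch had 82.7% G and C, against 42.8% in that of *Il6*. No match overlapped that of another motif. These are matches of letters only, and the data hold no measure of binding.

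Over both sexes, 8 of the 10 genes were abundant enough to be tested. With limma on log2(TPM + 1) and a Benjamini-Hochberg adjusted p under 0.05, 5 were higher in KO (*Socs3*, *Osmr*, *Il1rn*, *Stat3* and *Il1r1*), 1 was lower (*Lifr*), and *Il6ra* and *Il6st* did not pass. The same test called 50.1% of all tested genes higher and 4.82% lower. After rescaling, 4 were higher and 2 were lower, as *Il1r1* no longer passed and *Il6ra* did, against a background of 20.9% higher and 18.7% lower. The 6 KO livers did not overlap the 6 WT livers in 5 of the 10 genes, *Osmr*, *Lifr*, *Stat3*, *Socs3* and *Il1rn*, where 30.6% of tested genes did not overlap. After rescaling 3 remained apart (*Osmr*, *Lifr* and *Il1rn*), against 19.0%. The plot of TPM by group shows the values of each mouse, and the plot of genotype effects sets both scales side by side.

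**Figure D1:**
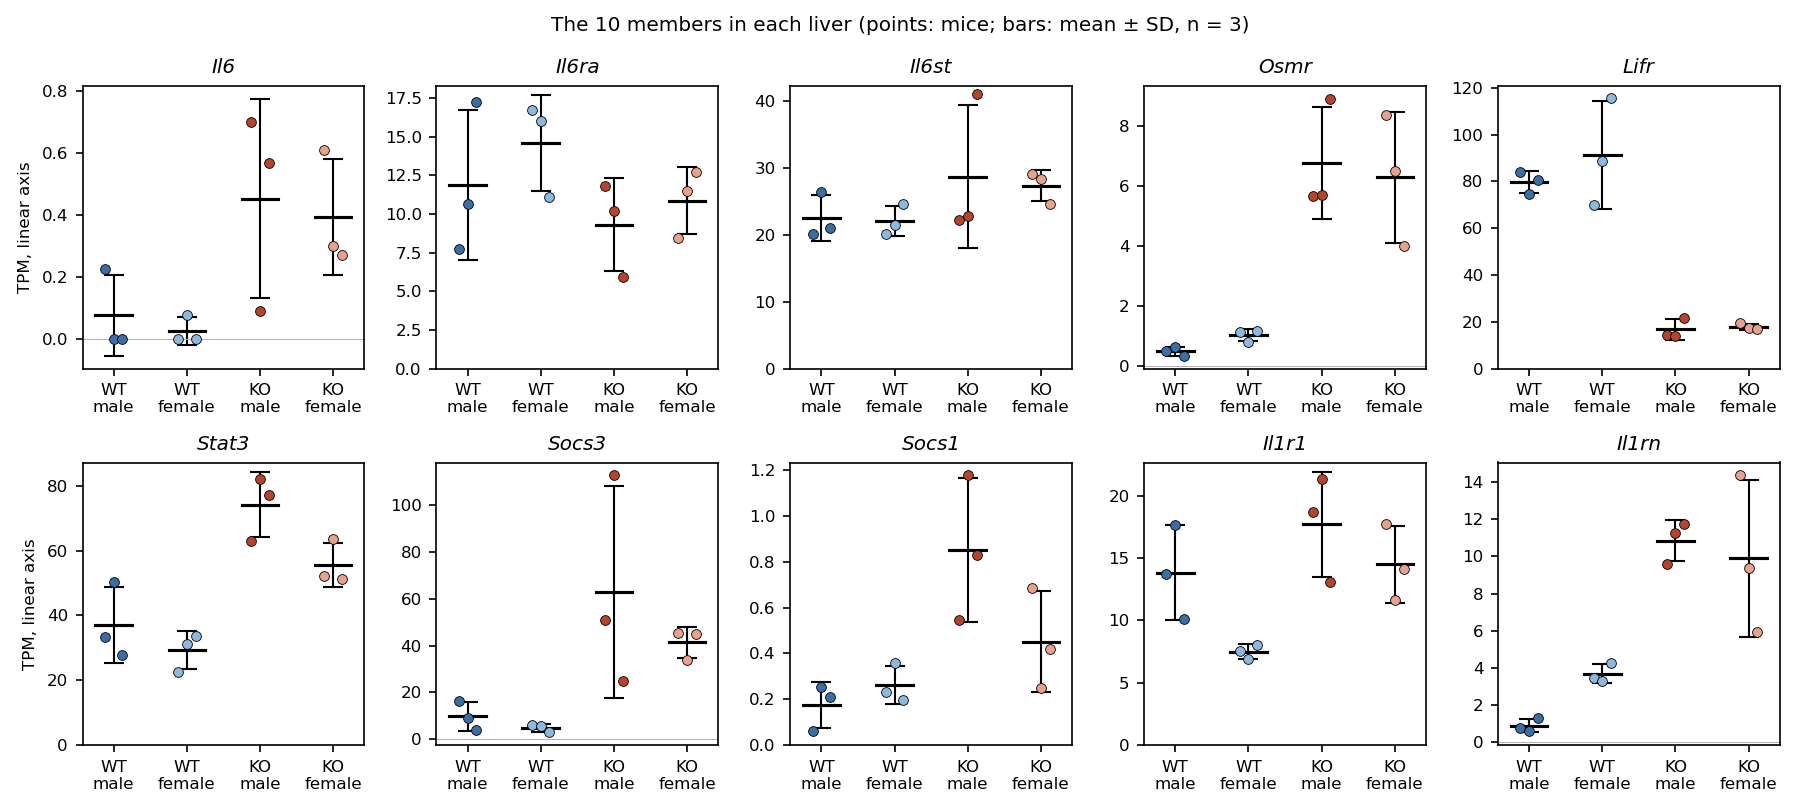
TPM (linear axis that includes 0, its own range in each panel) of the 10 genes in each mouse, by group. Points are mice and bars the mean ± SD (n = 3). *Lifr* sits between 69.8 and 115.6 TPM in WT and at most at 21.6 TPM in KO, while *Osmr* is at most 1.16 TPM in WT and at least 4.01 TPM in KO.

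**Figure D2:**
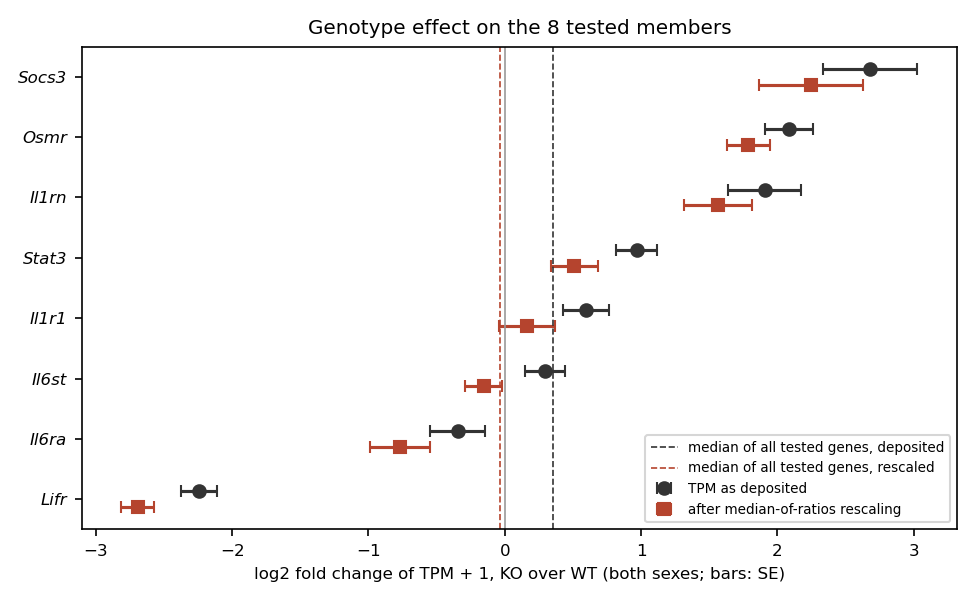
Log2 fold change of TPM + 1, KO over WT over both sexes, for the 8 tested genes (points, with SE as bars), on the deposited scale (circles) and after median-of-ratios rescaling (squares); dashed lines are the medians of all tested genes, 0.35 and -0.04. *Lifr* lies left of 0 at -2.24 and -2.69, and *Il6st* changes side, from 0.29 to -0.15.

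*Il6* itself (chr5:30013114-30019981, plus strand; positions here and below are those of GENCODE release 21 on GRCm38) was close to the detection limit. The 3 WT males had 0.225, 0 and 0 TPM and the 3 WT females 0, 0.0777 and 0. The KO males had 0.701, 0.0882 and 0.567 TPM and the KO females 0.609, 0.299 and 0.270. In 5 of 6 KO livers the value lay above every WT liver, and KO male 2 was the exception; after rescaling, 3 of 6 KO livers lay above every WT liver. The steps between TPM values gave the reads behind them: 8 in all over the 6 WT livers, 6 of them in WT male 1, and 61 over the 6 KO livers, with 2 to 17 in each. *Il6* was below the abundance filter, so its mean difference of 0.372 TPM was tested by an exact permutation within sex (two-sided p = 0.01, where 0.005 is the smallest of 400 arrangements). With no filter, limma gave a log2 fold change of 0.42 (SE 0.106, adjusted p = 0.00721 over 17332 genes).

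Of the other cytokines that signal through gp130, some were more abundant in KO. *Clcf1*, cardiotrophin-like cytokine, a ligand of the CNTF receptor that signals through gp130 and LIFR, was 0.552 ± 0.196 TPM in WT and 10.7 ± 2.68 TPM in KO (SD, n = 6), with a log2 fold change of 2.89 (limma adjusted p = 1.19e-08). *Lif*, the ligand of LIFR, was at 0 in 4 of 6 WT livers and at most 0.0931 TPM there, and 0.630 to 2.28 TPM in KO, without overlap. *Ebi3*, a subunit of interleukin-27, was 0.485 TPM in WT and 2.26 TPM in KO on average, also without overlap. Both genes reached the abundance filter only through KO, where they are high, so their tests carry no support. *Osm*, oncostatin M, the ligand of OSMR, was under the filter and was at most 0.0401 TPM in WT and between 0.202 and 1.19 TPM in KO, without overlap. Of the 11 ligand genes listed, 5 were tested, and *Clcf1* was the one that rose with WT as well as KO above the filter (2.59 after rescaling). Over all tested genes, here and for each list below, 50.1% were higher and 4.82% lower as deposited (median 0.35), and 20.9% higher and 18.7% lower after rescaling (median -0.04). *Ctf1* (0.35, limma adjusted p = 0.207) and *Cntf* (-0.11, limma adjusted p = 0.719) did not pass, and *Il31* was listed at 0 in every library.

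**Figure D3:**
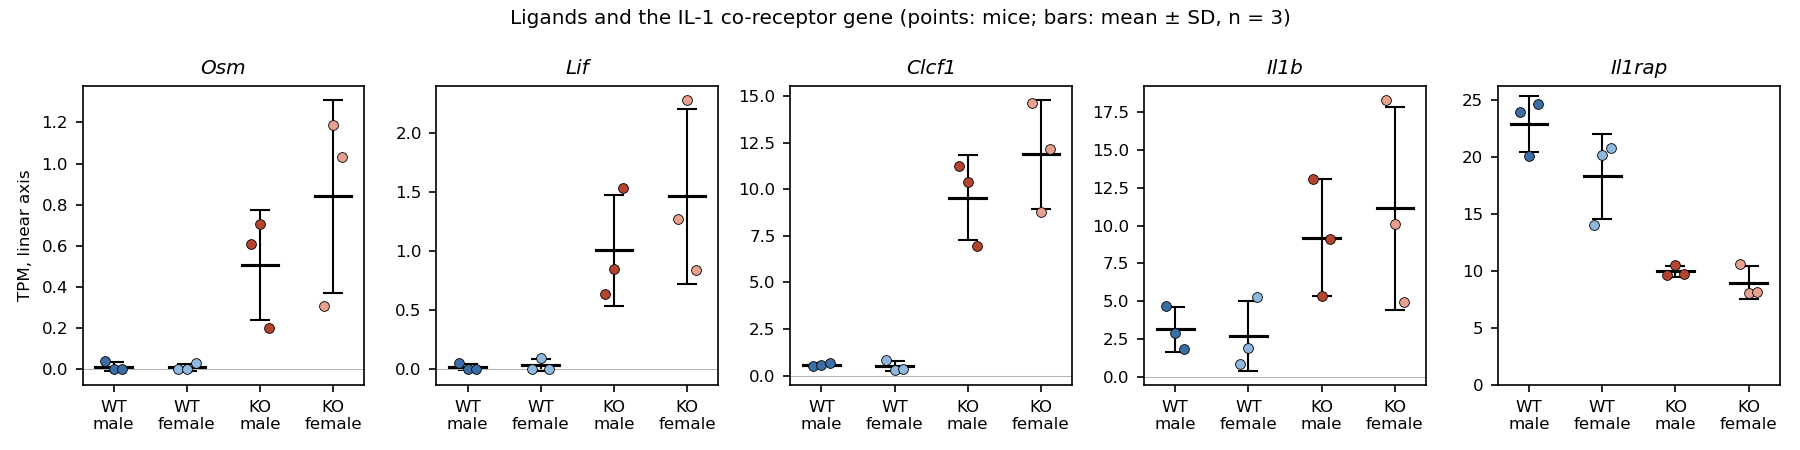
TPM (linear axis, its own range in each panel) in each mouse, by group. The panels are cytokine ligands of the gp130 and interleukin-1 receptors, and *Il1rap*, the partner chain of IL1R1. Points are mice and bars the mean ± SD (n = 3). *Clcf1* is at most 0.840 TPM in WT livers and at least 6.96 TPM in KO livers, while *Il1b* overlaps between the genotypes.

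Among the receptors, *Osmr* (chr15:6813577-6874969, minus strand), the chain that joins gp130 to bind oncostatin M and also serves the interleukin-31 receptor, was scarce in WT and rose in KO. WT males had 0.482, 0.608 and 0.335 TPM and WT females 1.13, 0.790 and 1.16 TPM. KO males had 5.68, 5.70 and 8.90 TPM and KO females 8.37, 6.48 and 4.01 TPM. Every KO liver lay above every WT liver, and the WT females lay above the WT males as deposited, though they overlapped after rescaling and the difference did not pass (limma adjusted p = 0.231). The means were 0.752 ± 0.341 TPM in WT and 6.52 ± 1.83 TPM in KO (SD, n = 6), a ratio of 8.68, from 24 to 90 reads per WT library and 235 to 528 per KO library. The log2 fold change was 2.09 (SE 0.177, limma adjusted p = 7.24e-07). Males showed 2.37 and females 1.80, and the value over both was 1.79 after rescaling.

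*Lifr* (chr15:7090614-7197489, plus strand), the chain that pairs with gp130 for LIF, went the other way. WT males had 83.8, 74.8 and 80.7 TPM and WT females 69.8, 88.6 and 115.6 TPM. In KO males the values were 14.5, 13.9 and 21.6 TPM, and in KO females 19.3, 17.3 and 16.7 TPM. The lowest WT liver, WT female 1, was thus well above the highest KO liver, KO male 3, and the KO livers were close to each other. The means were 85.6 ± 16.2 and 17.2 ± 2.91 TPM (SD, n = 6), and *Lifr* fell by 2.24 on the log2 scale (SE 0.135, limma adjusted p = 2.83e-08), by 2.22 in males and by 2.27 in females. After rescaling the log2 fold change was -2.69 (limma adjusted p = 3.75e-09).

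*Osmr* and *Lifr* are neighbours, 216 kb apart on chromosome 15 with no protein-coding gene annotated between them, and are transcribed in opposite directions. Because a ratio of 2 genes in 1 library does not depend on how the library is scaled, *Osmr* was also expressed as a share of the summed TPM of both genes; this ratio was chosen after the values were seen and has no test. The share was 0.571%, 0.807% and 0.413% in WT males and 1.59%, 0.884% and 0.997% in WT females. In KO males it was 28.1%, 29.1% and 29.1%, and in KO females 30.3%, 27.2% and 19.3%. The WT mean was 0.878 ± 0.411% and the KO mean 27.2 ± 3.98% (SD, n = 6), and the lowest KO liver, KO female 3, was far above the highest WT liver. *Lifr* remained the more abundant of the pair in every liver, as the plot of *Osmr* against *Lifr* shows.

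**Figure D4:**
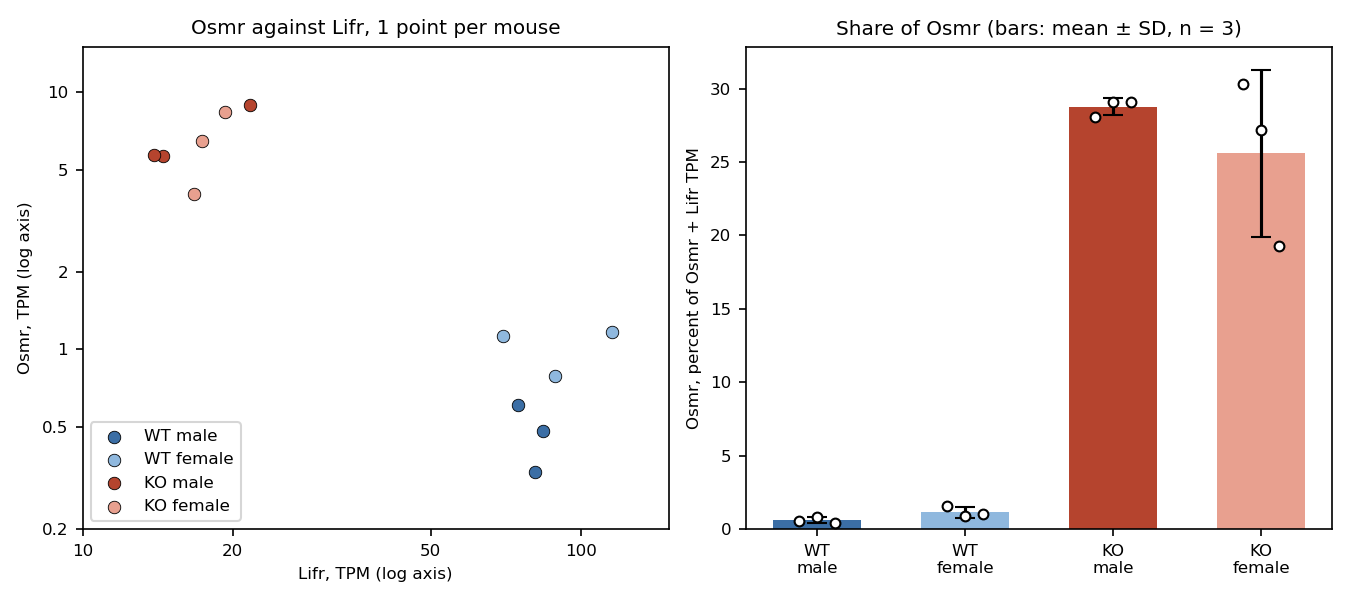
Left, *Osmr* against *Lifr* in TPM on log axes, 1 point per mouse, coloured by group; right, *Osmr* as a percent of the summed TPM of *Osmr* and *Lifr*, with points for mice and bars for the mean ± SD (n = 3), from 0. The 6 WT livers lie at the lower right with shares of at most 1.59%, and the 6 KO livers at the upper left with shares of at least 19.3%.

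The chains of the interleukin-6 receptor itself moved less. *Il6ra* (chr3:89864059-89913196, minus strand), the ligand-binding chain, had 7.71, 10.7 and 17.2 TPM in WT males, 16.7, 16.0 and 11.1 TPM in WT females, 11.8, 10.2 and 5.94 TPM in KO males and 8.44, 11.5 and 12.7 TPM in KO females. The groups overlapped, and it did not pass on the deposited scale, at -0.35 (SE 0.20, limma adjusted p = 0.158). It passed after rescaling, at -0.77 (SE 0.219, limma adjusted p = 0.0138). In the authors' deposited table its log2 fold change is -0.71, with an FDR p-value printed as 0.01.

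*Il6st* (chr13:112464070-112510086, plus strand), which encodes gp130, had 20.1, 26.4 and 21.0 TPM in WT males and 20.2, 21.5 and 24.6 TPM in WT females. KO males had 22.2, 22.8 and 41.1 TPM and KO females 29.0, 28.4 and 24.7 TPM. The genotypes overlapped, and KO male 3 stood above all other livers as deposited but, at 30.6 TPM after rescaling, below WT male 2 at 36.4 TPM. The log2 fold change was 0.29 (SE 0.145, limma adjusted p = 0.1) as deposited and -0.15 (limma adjusted p = 0.395) after rescaling, so no direction can be given for it.

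Of 8 other genes of receptors and receptor shedding, 7 were tested and 4 were higher in KO, none lower, on the deposited scale. These 4 all belong to the shedding machinery that cleaves IL6RA and other surface proteins: *Rhbdf2* (1.70, limma adjusted p = 1.86e-07) and *Rhbdf1* (1.41, limma adjusted p = 3.45e-06), which bring the ADAM17 protease to the surface, *Adam10* (1.12, limma adjusted p = 1.29e-05) and *Adam17* (0.86, limma adjusted p = 0.000263). They passed after rescaling too, where *Il11ra1*, the interleukin-11 receptor chain, was lower (-0.47, limma adjusted p = 0.00136) after showing -0.02 as deposited. The median of the 7 was 0.86, and 0.43 after rescaling. The 4 of 7 higher as deposited are near the 50.1% of all tested genes.

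*Stat3* (chr11:100885098-100939540, minus strand), the transcription factor that all gp130 receptors feed, was the second most abundant of the 10 genes in WT and the most abundant in KO. WT males had 33.3, 50.2 and 27.9 TPM and WT females 22.6, 31.2 and 33.8 TPM, against 62.9, 82.1 and 77.3 TPM in KO males and 52.1, 63.4 and 51.3 TPM in KO females. All KO livers lay above all WT livers, though KO female 3 at 51.3 TPM was next to WT male 2 at 50.2 TPM. The log2 fold change was 0.97 (SE 0.149, limma adjusted p = 0.000124). After rescaling it was 0.51 (SE 0.171, limma adjusted p = 0.0305), the groups overlapped, and neither sex passed alone (males 0.45, adjusted p = 0.223; females 0.58, adjusted p = 0.108; limma). The authors' deposited table gives a log2 fold change of 0.20 with an FDR p-value of 0.62. Exons of *Stat3* overlap those of *Stat5a* on the opposite strand, and the use of strand in counting is not given in the sources used here. *Stat5a*, at 6.62 TPM in WT and 11.2 TPM in KO, had far fewer transcripts than *Stat3*.

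Of 10 other kinase and STAT genes, 9 were tested and 7 were higher, none lower, and the median was 0.61. *Jak3* (1.37, limma adjusted p = 7.05e-06), a kinase known mainly from lymphocytes, had the largest change, followed by *Tyk2* (0.69), *Stat5a* (0.68) and *Jak2* (0.64). After rescaling only *Jak3* (0.95) and *Tyk2* (0.27) were higher, and the median was 0.16.

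*Socs3* (chr11:117966079-117970047, minus strand), the feedback inhibitor of gp130 signalling, rose in both sexes. WT males had 16.3, 9.13 and 3.99 TPM and WT females 6.08, 5.66 and 2.95 TPM. KO males had 51.0, 112.8 and 24.6 TPM, and KO females 45.5, 33.7 and 45.0 TPM. All KO livers were above all WT livers as deposited, but values varied widely within each genotype, 7.36 ± 4.88 TPM in WT and 52.1 ± 31.2 TPM in KO (SD, n = 6). The log2 fold change was 2.68 (SE 0.347, limma adjusted p = 2.93e-05), 2.48 in males and 2.88 in females. After rescaling it was 2.25 (SE 0.379, limma adjusted p = 0.000431), and 5 of 6 KO livers lay above all WT livers.

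Set against *Stat3* in the same liver, *Socs3* made up 8.04% to 32.9% of the summed TPM of both genes in WT and 24.2% to 57.9% in KO. KO male 3, with the lowest *Socs3* of its genotype, was the KO liver that overlapped WT in this share, which was chosen after the values were seen and was not tested. *Socs1* (chr16:10782240-10785536, minus strand), the related inhibitor best known from interferon signalling, was much scarcer. It had 0.0627, 0.252 and 0.211 TPM in WT males, 0.233, 0.357 and 0.195 TPM in WT females, 0.549, 1.18 and 0.829 TPM in KO males and 0.688, 0.250 and 0.419 TPM in KO females, from 45 reads in all WT and 111 in all KO livers. The males did not overlap between genotypes, and the females did. The mean difference of 0.434 TPM had an exact permutation p of 0.01 (two-sided), and limma with no filter gave a log2 fold change of 0.42 (SE 0.114, adjusted p = 0.0112). In the authors' deposited table the log2 fold change of *Socs1* is 1.20, with an FDR p-value of 0.11.

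A further 14 inhibitors of the pathway were tested, and 8 were higher as deposited, none lower, and the median was 0.49. Among those that passed, the largest changes were in the tyrosine phosphatases *Ptpn1* (1.05, limma adjusted p = 0.000141), *Ptpn6* (0.89, limma adjusted p = 1.21e-05) and *Ptpn2* (0.62), and in *Pias4* (0.61). After rescaling *Ptpn1* and *Ptpn6* were still higher, *Pias2* was lower, and the median was 0.09. The 8 of 14 higher as deposited are near the 50.1% of all tested genes, and the 2 of 14 after rescaling are below 20.9%.

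Of 32 genes listed here as STAT3 targets, most of them acute-phase genes, 31 were tested. The listing of each gene as a target was not tested in these data. On the deposited scale 26 were higher and 1 lower, and the median of the 31 log2 fold changes was 1.02. After rescaling 13 were higher and 2 lower, with a median of 0.56. The shares over all tested genes were 50.1% higher and 4.82% lower as deposited, and 20.9% and 18.7% after rescaling. *Lcn2*, lipocalin 2, an iron-binding acute-phase protein, was 29.5 ± 24.2 TPM in WT and 1626 ± 475 TPM in KO (SD, n = 6) and rose by 6.06 on the log2 scale (limma adjusted p = 2.15e-07). *Orm2* (4.99, limma adjusted p = 4.23e-06), an acute-phase carrier protein, also rose. *Saa2*, a serum amyloid A gene, passed as deposited (2.52, limma adjusted p = 0.0125) but not after rescaling (2.05, limma adjusted p = 0.0579). Its mean was 288.5 ± 591.6 TPM in WT and 500.4 ± 309.4 TPM in KO (SD, n = 6). The genotypes overlapped for *Saa2*, and the highest WT liver (1495 TPM) was above the highest KO liver (986.9 TPM). *Timp1*, an inhibitor of matrix proteases, was 0.364 TPM in WT and 11.9 TPM in KO on average, and was the 1 gene of the 31 that reached the filter only through KO, so the counts and median include a gene that had to differ. *Saa4* was the gene that fell as deposited, by 1.04 (limma adjusted p = 0.00153). After rescaling *Hamp*, which encodes hepcidin, was lower as well (-0.88, limma adjusted p = 0.0373). As deposited *Hamp* did not pass (-0.42, limma adjusted p = 0.253). *Saa1* and *Saa2*, and *Orm1* and *Orm2*, are near-identical copies that can share reads, so the values of single copies are uncertain.

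On the interleukin-1 side, *Il1r1* (chr1:40225080-40317257, plus strand), the signalling receptor, had 13.7, 17.7 and 10.1 TPM in WT males and 7.55, 6.93 and 8.05 TPM in WT females. KO males had 18.7, 21.4 and 13.1 TPM and KO females 17.8, 11.7 and 14.1 TPM. All 3 WT females lay below all other livers, and the WT and KO males overlapped. The log2 fold change over both sexes was 0.60 (SE 0.169, limma adjusted p = 0.00908), with 0.85 in females (limma adjusted p = 0.0109) and 0.34 in males (limma adjusted p = 0.222). After rescaling none of these passed (0.16 over both, limma adjusted p = 0.557; 0.53 in females, limma adjusted p = 0.156). The male minus female difference in WT was 0.77 (limma adjusted p = 0.0619), and 0.99 after rescaling (limma adjusted p = 0.0498).

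*Il1rn* (chr2:24336853-24351494, plus strand), the receptor antagonist, differed by sex in WT and rose in KO of both sexes. WT males had 0.775, 0.602 and 1.27 TPM and WT females 3.48, 3.31 and 4.25 TPM. KO males had 9.59, 11.2 and 11.8 TPM and KO females 14.4, 9.39 and 5.95 TPM. In WT every female was above every male, while in KO the sexes overlapped and every KO liver was above every WT liver. The group means were 0.883 ± 0.348 TPM in WT males, 3.68 ± 0.502 in WT females, 10.9 ± 1.13 in KO males and 9.91 ± 4.23 in KO females (SD, n = 3). The log2 fold change over both sexes was 1.91 (SE 0.268, limma adjusted p = 5.85e-05) and 1.57 after rescaling (limma adjusted p = 0.000306).

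Within males the *Il1rn* change was 2.67 (limma adjusted p = 5.41e-06) and within females 1.15 (limma adjusted p = 0.00342). The difference between these effects, 1.52 (SE 0.351), did not pass over all genes (limma adjusted p = 0.0826, unadjusted p = 0.000902). It passed without WT male 3 (1.66, limma adjusted p = 0.0457) and without KO female 1 (1.80, limma adjusted p = 0.0112), and over all alternatives the adjusted p ran from 0.0112 to 0.205. The male minus female difference was -1.32 in WT (limma adjusted p = 0.00825) and 0.19 in KO (limma adjusted p = 0.91). As a share of the summed TPM of *Il1rn* and *Il1r1*, the antagonist was 5.35%, 3.29% and 11.2% in WT males, 31.5%, 32.3% and 34.6% in WT females, 33.9%, 34.5% and 47.3% in KO males and 44.7%, 44.6% and 29.7% in KO females. WT males thus stood apart from the other 3 groups in this share, which was chosen after the values were seen and was not tested.

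Of 13 other genes of the interleukin-1 family, 8 were tested, and 6 were higher and 1 lower as deposited (median 0.78; 4 higher, 1 lower and a median of 0.45 after rescaling). *Il1rap*, the partner chain of IL1R1, was the one that fell, from 14.0 to 24.6 TPM in WT to 8.09 to 10.7 TPM in KO, without overlap (log2 fold change -1.03, limma adjusted p = 1.15e-05, and -1.46 after rescaling). Both ligands of IL1R1 rose: *Il1b* was 0.858 to 5.29 TPM in WT and 4.97 to 18.4 TPM in KO (1.52, limma adjusted p = 0.00212), and *Il1a* was 2.13 TPM in WT and 4.82 TPM in KO on average (0.88, limma adjusted p = 0.000351). Of the other ligands in the list, *Il18* did not pass (0.08, limma adjusted p = 0.745), and *Il33* passed as deposited (0.67, limma adjusted p = 0.012) but not after rescaling (0.38, limma adjusted p = 0.115). *Casp1*, the protease that processes interleukin-1 beta (1.60, limma adjusted p = 7.46e-06), and *Il18bp*, a decoy that binds interleukin-18 (1.58, limma adjusted p = 1.74e-05), were also higher. Downstream of the receptor, 10 of 14 signalling genes were higher and none lower (median 0.64; 5 higher, 2 lower and a median of 0.21 after rescaling), against 50.1% of all tested genes higher as deposited and 20.9% higher and 18.7% lower after rescaling. These counts include *Irak3*, an inhibitor of this signalling, which was 0.467 TPM in WT and 6.80 TPM in KO on average and reached the filter only through KO. Of the others, *Nfkbiz* (1.51, limma adjusted p = 0.000274) and *Irak4* (1.12, limma adjusted p = 5.72e-05) passed on both scales, and *Nfkbia* (1.10) lost its call after rescaling (0.64, limma adjusted p = 0.0742).

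By sex, 4 of the 8 tested genes were higher and 1 lower in males, where 43.3% and 2.81% of all genes were called in these directions. In females 5 were higher and 1 lower, against 29.1% and 4.68%. The interaction of genotype and sex passed for 0 of the 8 with limma (1 at an unadjusted p under 0.05, *Il1rn*), where 0.912% of all genes passed. Between WT males and females 1 of the 8, *Il1rn*, passed, against 5.74% of all genes. Between KO males and females 0 passed with limma, where 0.0814% of all genes passed. At an unadjusted p under 0.05 there were also 0 of the 8.

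TPM is corrected for length, so levels can be ordered between genes. In WT the order of mean TPM was *Lifr* (85.6), *Stat3* (33.1), *Il6st* (22.3), *Il6ra* (13.2), *Il1r1* (10.7), *Socs3* (7.36), *Il1rn* (2.28), *Osmr* (0.752), *Socs1* (0.219) and *Il6* (0.0505). Over the 6 livers, the ranges of neighbours in that order overlapped except between *Lifr* and *Stat3* and between *Il6st* and *Il6ra*. In KO the order was *Stat3* (64.9), *Socs3* (52.1), *Il6st* (28.0), *Lifr* (17.2), *Il1r1* (16.1), *Il1rn* (10.4), *Il6ra* (10.1), *Osmr* (6.52), *Socs1* (0.652) and *Il6* (0.422). There the ranges separated between *Il6st* and *Lifr* and between *Osmr* and *Socs1*. *Lifr* thus had the highest mean of the 10 in WT but lay below *Stat3*, *Socs3* and *Il6st* in KO.

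The authors' deposited table holds its own comparison of KO with WT, in which the log2 fold change of *Osmr* is 2.87, of *Lifr* -2.77, of *Il1rn* 2.66 and of *Socs3* 2.02, each with an FDR p-value printed as 0. The authors' deposited table gives *Il6* 2.39 (FDR p-value 0.05), *Il6st* -0.24 (0.49) and *Il1r1* -0.11 (0.8). The median log2 fold change over all genes in the authors' deposited table is 0.04, close to that after rescaling here.

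Several cell types other than hepatocytes express these genes, and the markers of some, though not all, of them moved with genotype. All 8 markers of Kupffer cells and macrophages were higher in KO (7 after rescaling), with a summed TPM of 72.1 to 235.4 in WT and 344.1 to 713.1 in KO, and none was at 0 in every library. Of 8 stellate cell and myofibroblast markers, 5 were higher, near the share of all genes, with overlapping sums of 59.5 to 163.9 TPM in WT and 138.4 to 352.5 TPM in KO. After rescaling 3 were higher and 1, *Lrat*, was lower. Of 8 neutrophil markers, 5 were tested and 4 were higher (1 after rescaling; *Ngp* reached the filter only through KO), with overlapping sums of 0.294 to 21.4 TPM and 13.2 to 46.9 TPM, and *Ly6g* was at 0 in every WT library. Lymphocyte markers (1 of 4 tested higher, 0 after rescaling; 2.44 to 7.80 and 3.09 to 8.24 TPM) and endothelial markers (1 higher, 2 lower of 8, and 0 higher, 3 lower after rescaling; 61.2 to 100.7 and 37.8 to 148.5 TPM) overlapped. Cholangiocyte markers (2 higher, 1 lower of 4 tested, and 1 of each after rescaling; 12.4 to 17.5 and 22.8 to 33.5 TPM) did not, with *Sox9* among those higher and *Epcam* lower. Of the 6 hepatocyte markers, 1 was higher and 2 (*Ttr* and *Serpina1c*) were lower, and after rescaling 0 were higher and 3 lower, *Alb* being the third. The part of cell composition in the changes of the 10 genes was not tested.

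Across the 12 livers, the genes whose log2(TPM + 1) followed each called gene most closely were listed as a description; all 12 points share the genotype difference, so the correlation after subtracting group means is given as well. *Osmr* was closest to *Nck2* (Pearson r 0.993, and 0.89 within groups), *Pip5k1c* (0.993 and 0.86) and *Dstn* (0.991 and 0.88). *Lifr* was closest to *Sult2a8* (0.981 and 0.40), *Yap1* (0.980 and 0.61) and *Hsd17b2* (0.976 and 0.82). *Stat3* was closest to *Rb1* (0.965 and 0.95), *C4b* (0.964 and 0.82) and *Ldha* (0.963 and 0.82). *Socs3* was closest to *Rabepk* (0.973 and 0.87), *Ddx28* (0.969 and 0.81) and *Btg3* (0.955 and 0.72). For *Il1r1* the nearest were *Saa1* (0.948 and 0.87), *Scara5* (0.929 and 0.90) and *Saa2* (0.915 and 0.82), and for *Il1rn* they were *Rtn4* (0.984 and 0.81), *Ppil2* (0.983 and 0.92) and *Zbp1* (0.982 and 0.71).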

How the data were processed

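Per the labels' protocols, liver RNA was isolated with Trizol, cleaned on columns, treated with DNase and sequenced as Illumina libraries. The authors deposited 1 table of TPM per gene and sample, per the file headers, with their own comparison (fold change, its log2 and FDR p-values with 2 decimals); GRCm38 and edgeR are named in the submitters' processing notes, and the aligner and use of strand are not given in the sources used here. All 12 sample columns matched 1 sample each and 0 were unmatched. Groups came from the titles, and replicate numbers follow accession order only. Each title carries its own animal number, so replicates are mice, and litters are not given.

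TPM were analysed as log2(TPM + 1) with limma 3.58.1 in R 4.3.3 (lmFit, eBayes with trend; two-sided; Benjamini-Hochberg over 12278 genes with a mean of at least 0.5 TPM; threshold 0.05), which understates changes of low genes. The comparison over both sexes had sex as a covariate, and the comparisons within a sex and their interaction (male minus female effect) came from 1 fit of the 4 group means. *Il6* and *Socs1* were tested by exact permutation of TPM within sex. The fit was tested on simulated data. Whole reads were recovered from TPM steps of low genes within a tolerance of 0.02, and the depth of whole libraries is not stated. Between 14321 and 15482 genes were above 0 TPM per library, and the TPM worth of 1 read varied from 0.779 to 1.258 relative to WT male 1. Alternatives were another pseudocount, other filters and scalings, a fit with no trend and a term for the earlier animal series. Fits without the sex covariate or on 1 sex were also run, and each replicate was left out.

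All 10 genes are named with values. From each of 7 pathway lists the text names up to 4 genes past the threshold with the largest change, and ligands or partner chains of the 10 genes; likeness was ranked by Pearson r, 3 genes for each. *Il11ra1*, *Pias2*, *Saa4*, *Hamp*, *Ctf1*, *Cntf*, *Il18*, *Il33*, *Il31* and the named cell type markers were added after their values were seen. They were named as exceptions to a count. The 10 genes and the lists were chosen with earlier results of these data known, and the motif letters after the values were seen. Some single genes of the lists are not reported here.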

Additional observations from a re-analysis of the deposited data

Results flagged for a closer look

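In groups of 6 livers of 1 genotype, the gap of the highest or lowest liver was set against the whole range (against Dixon's critical value), for 20 groups, of which chance flags about 1 in 20. In all, 3 values stood apart. *Il6* in WT male 1 was 0.225 TPM, the highest of the WT livers, from 6 reads, and the other WT livers had at most 2. *Il6st* in KO male 3 was 41.1 TPM, where the next KO liver had 29.0 TPM; the size factor of KO male 3, 1.342, was the highest of the 12, and after rescaling its value was 30.6 TPM, below WT male 2. *Socs3* in KO male 2 was 112.8 TPM, against 51.0 TPM in the next KO liver. KO male 2 was also the KO liver with the lowest *Il6*, 0.0882 TPM. On rescaled TPM, an alternative chosen after seeing the data, *Il6* in WT male 1 and *Socs3* in KO male 2 still stood apart, *Il6st* in KO male 3 did not (a gap of 0.487 of the range), and the highest WT livers of *Il6st* (0.656) and *Stat3* (0.639), both WT male 2, did.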

How the results depend on the processing

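The count of genes past the threshold over both sexes was 6 as reported and 6 to 8 under its alternatives, 8 with no filter because *Il6* and *Socs1* were then tested; leaving out any 1 replicate gave 6. Leave-one-out counts were 5 in males and 6 in females for every replicate. The interaction count, 0 as reported, was 1 (*Il1rn*) with a pseudocount of 0.1 and 0 to 1 with 1 replicate left out, 1 without WT male 3 or KO female 1. The count between WT sexes, 1 as reported, was 2 after median-of-ratios rescaling and 1 to 2 with 1 replicate left out, 2 without WT male 3 or KO male 3, where *Il1r1* passed as well. *Il6st* reversed to -0.15 (limma adjusted p = 0.395) after rescaling. Rescaling also ended the calls of *Il1r1* over both sexes and in females and of *Stat3* in each sex, and added *Il6ra*; the cause was not tested. *Lifr*, *Osmr*, *Socs3*, *Il1rn* and *Stat3* kept direction and call over both sexes under all 20 alternatives of each, with log2 fold changes of -2.69 to -2.16, 1.79 to 3.01, 2.25 to 2.94, 1.57 to 2.43 and 0.51 to 1.07. The differences of *Il6* and *Socs1* kept an exact permutation p of at most 0.035 with 1 replicate left out (0.310 to 0.463 and 0.352 to 0.509 TPM) and on other scales (0.294 to 0.545 and 0.292 to 0.608 TPM). No paired analysis was possible because the labels give no replicate numbers. With 3 mice a group and few reads, values of *Il6* and *Socs1* in single livers rest on 0 to 32 reads and are uncertain.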
